A study of Rattus norvegicus with 19 samples.

Results

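The heat shock and chaperone genes described here are 10 listed genes of rat: the small heat shock protein genes Hspb1, Hspb8 and Cryab, the Hsp70 and Hsp110 genes Hspa1b, Hspa5, Hspa8 and Hsph1, the Hsp90 genes Hsp90aa1 and Hsp90ab1, and the Hsp60 gene Hspd1. Members were the probe sets to which the platform annotation gives 1 symbol, that of a listed gene. This rule found 7 of the 10 genes on 10 probe sets, out of 14217 genes and 31042 tested probe sets in all. Hspa1b, Hspa8 and Hsp90aa1 lie only on probe sets that carry several symbols (1, 1 and 2 probe sets), so no value is given for them. Hspb8, Hsph1 and Hsp90ab1 have 2 probe sets each. The brighter one stands for the gene, and the other is given where its call differs and beside some other results.

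RNA of Sprague-Dawley rat cells was hybridised to 19 Affymetrix arrays, and each transcript was read with a set of short probes. Leydig cells of 4 stages were used, labelled stem (n = 5), progenitor (n = 3), immature (n = 4) and adult (n = 4), and a further group held bone stem cells (n = 3). The Leydig cell is the testosterone-producing cell of the testis, and the series set its developmental stages side by side. No treatment, transgene or age is given in the labels, nor how the cells were isolated or whether they were cultured. The samples are bulk RNA, so fewer cells of a type and less RNA per cell cannot be told apart.

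Chaperones are proteins that hold or refold other proteins. Small heat shock proteins form oligomers that bind unfolding clients without using ATP, and they are abundant in muscle and other cells with a dense cytoskeleton, where they protect actin and intermediate filaments. The Hsp70 and Hsp90 families fold clients through cycles of ATP hydrolysis with cochaperones, and Hsp60 with its lid Hsp10 folds proteins inside mitochondria. Many of these genes are switched on by heat shock factors, which bind repeated GAA units in promoters, whereas the endoplasmic reticulum chaperone Hspa5 (BiP) is switched on by unfolded protein in that compartment.

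The promoter letters show how the listed genes differ in these elements. RefSeq promoter windows, from 250 bases before to 50 after the start of each gene on the GRCr8 build, were held for 7 of the 10 listed genes and for 6 of the 7 measured ones. Windows were searched on both strands for the heat shock element core (GAANNTTC or TTCNNGAA), for its form of 3 alternating GAA and TTC units each 2 bases apart, which contains the core, and for the endoplasmic reticulum stress element (CCAAT, then 9 bases, then CCACG). Of all 33469 windows, 15.9% held the core, 0.798% the form of 3 units and 0.0657% the endoplasmic reticulum stress element. The stretches below, given 5′ to 3′ on the gene's strand, are shown because they carry these matches in genes whose values follow, and capitals mark the matches.
Hspb1, chr12:26432397-26432436, minus strand: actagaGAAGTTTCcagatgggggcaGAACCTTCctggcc
Hspb8, chr12:45837274-45837303, plus strand: agaagccaggaGAAGTTTCtaggcgcgtga
Hsph1, chr12:10427318-10427357, plus strand: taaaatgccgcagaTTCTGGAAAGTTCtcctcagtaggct
Hspe1, chr9:64084254-64084283, plus strand: gcgctcggTTCTAGAACCTTCCGGAAggcc
Hspa5, chr3:38452956-38453005, plus strand: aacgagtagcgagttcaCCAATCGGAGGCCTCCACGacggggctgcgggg

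Hspb1 held separate core matches that began 129 and 109 bases before its start, and Hspb8 held 1 that began 23 bases before. Hsph1 held the form of 3 units 36 bases before its start. In the Hspe1 stretch, overlapping matches of 3 units began 65 and 60 bases before the start. Hspe1 encodes Hsp10, and its gene lies head to head with Hspd1 on chromosome 9: the 30 bases printed were also found, on the other strand, in the Hspd1 window, from 246 bases before the start of Hspd1. Hspa8 held matches of 3 units at 213 and 55 bases before its start. Hspa5 held the endoplasmic reticulum stress element 43 bases before its start and no heat shock element in this window. Hsp90ab1 held none of the searched elements in its window. A match is a run of letters only, and no binding was measured.

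**Figure D1:**
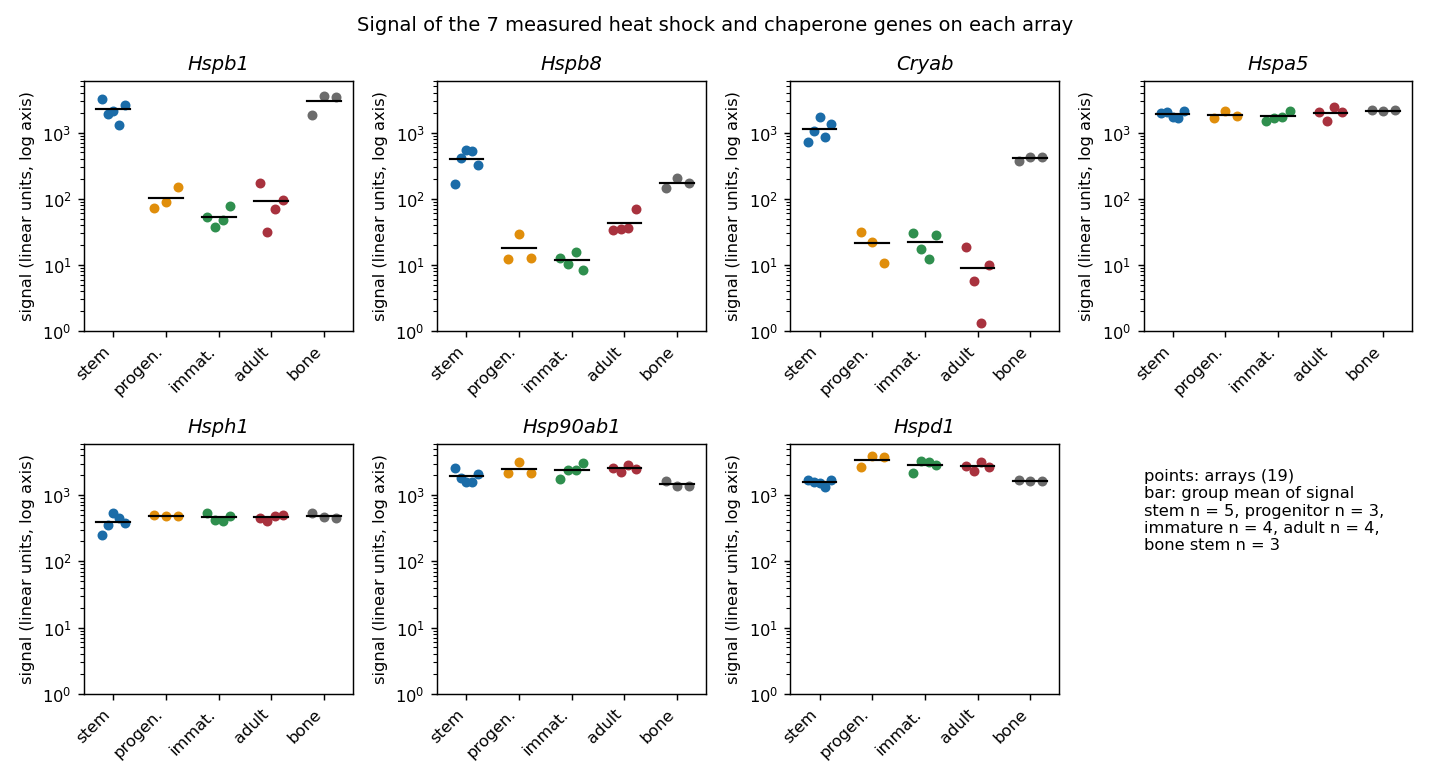
Signal of the 7 measured genes on each of the 19 arrays, in the deposited linear units on a log axis, by group (stem n = 5, progenitor n = 3, immature n = 4, adult n = 4, bone stem n = 3). Points are arrays and bars are group means. Hspb1, Hspb8 and Cryab are high in both stem groups and low in the later Leydig stages, Hspd1 is higher in the later Leydig stages, and Hspa5, Hsph1 and Hsp90ab1 were not called between any of the Leydig stages.

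Signals are the deposited array intensities. Tests were run on log2(signal + 16) in 1 limma fit over all probe sets, with the adjusted p (Benjamini-Hochberg) over all 31042 of them, and a gene was called at an adjusted p under 0.05. Log2 changes carry a standard error (SE) and understate the change of a dim gene. Signals of different probe sets are not on a common scale, so levels are compared between groups and not between genes. Nothing in the labels ties the arrays of a group to different animals or cultures, and each p-value therefore reflects the spread among these arrays alone, which may be technical.

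The summed signal of the Leydig markers set the later stages apart from both stem groups, while that of the stem and mesenchymal markers did not. The latter was 4115.9 to 5625.4 in stem Leydig, 4492.6 to 4883.5 in bone stem and 4546.9 to 4838 in progenitor arrays. It was 4918.2 to 6289.7 in immature and 5375.1 to 7275.9 in adult arrays. This sum hides opposite changes of single markers: in adult against stem cells 5 of 10 were higher and 5 were lower. The summed signal of 8 Leydig markers was 370 to 1600.3 in the stem Leydig arrays, 83.4 to 613.9 in the bone stem arrays and at least 12354.8 on every later array. Cyp17a1, the enzyme that opens androgen synthesis, had a mean signal of 1.09 in the stem Leydig group and 5127 in progenitors. A few arrays were unlike their group. Immature replicate 4 had a mean correlation over probe sets of 0.972 with the progenitor arrays and of 0.959 with its own group. Its mean signal over the BioB control probe sets was 13.7, against 470 to 1159.9 on the other immature arrays. The 3′ to 5′ signal ratio of GAPDH was 1.52 on this array, against 1.13 to 1.18 on those. Progenitor replicate 3 had the highest 3′ to 5′ signal ratio of beta-actin, 6.35, and this ratio was 2.38 to 2.95 in the bone stem arrays against 1.03 to 1.84 in the stem Leydig arrays. Bone stem replicates 2 and 3, and immature replicates 2 and 3, were the most alike of 28 pairs within groups, with median absolute log2 differences of 0.064 and 0.089 against 0.102 to 0.328 in the other pairs. Each member count below was also made without immature replicate 4 and progenitor replicate 3, and with both close pairs averaged.

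From stem to progenitor Leydig cells, the 3 small heat shock protein genes fell together, while the Hsp70, Hsp110 and Hsp90 genes measured did not pass the test and Hspd1 rose. The mean signal of Hspb1 fell 21.6-fold. Those of Hspb8 and Cryab fell from 393 and 1135 to 18.0 and 21.6, in the lower part of the progenitor arrays where no detection floor was tested, so no fold is given for them. Of the 7 measured genes, 3 were lower and 1 was higher. Over all 14217 genes, 45.3% were called in this comparison, 18.5% lower and 26.8% higher, so a call by itself was common at this step. The median log2 change was -4.22 over the 3 small heat shock protein genes, against 0.08 over all genes.

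Hspb1 encodes Hsp27, a small heat shock protein that binds actin. Its signals in the 5 stem Leydig arrays were 3235.4, 1926.8, 2133.1, 1292 and 2623.1. In the 3 progenitor arrays they were 72.7, 89.4 and 149.5. The groups did not overlap, and the lowest stem array was several times the highest progenitor array. The log2 change was -4.22 ± 0.35 (SE), with an adjusted p of 5.85e-09 in limma.

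Hspb8 encodes a small heat shock protein that works with the cochaperone Bag3 in the removal of damaged filaments. Its stem signals were 166.7, 406.1, 542, 530.8 and 318.3. Its progenitor signals were 12.2, 29 and 12.6. The first stem array was the lowest of its group and still lay above all progenitor arrays. The log2 change was -3.52 ± 0.29 (SE; adjusted p = 4.04e-09, limma), and the dimmer probe set was also called lower, at -1.96.

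Cryab encodes alpha-B crystallin, a small heat shock protein of lens and muscle that binds desmin and other filaments. Its stem signals were 714.9, 1045.2, 1736.7, 851.9 and 1326. Its progenitor signals were 31.8, 22.5 and 10.5, within the range where no detection floor was tested. The groups were far apart on every array, with a log2 change of -4.91 ± 0.26 (SE; adjusted p = 8.78e-12, limma).

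Hspd1, which encodes the mitochondrial chaperonin Hsp60, moved the other way. Its stem signals were 1696.2, 1572.6, 1535.1, 1339.1 and 1689.4, a tight group. Its progenitor signals were 2687.4, 3878.3 and 3802.8. All progenitor arrays lay above all stem arrays, and the log2 change was 1.12 ± 0.16 (SE; adjusted p = 8.9e-06, limma), a 2.21-fold ratio of mean signals.

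Hspa5, the endoplasmic reticulum Hsp70, had a mean signal of 1898 ± 196 (SD, n = 5) in stem and 1840 ± 222 (SD, n = 3) in progenitor arrays. Its log2 change was -0.05, with a 95% interval from -0.36 to 0.27. Hsph1 encodes Hsp110, a nucleotide exchange factor of Hsp70, and its log2 change was 0.35 (interval -0.01 to 0.70, adjusted p = 0.119, limma). Hsp90ab1, the constitutive cytosolic Hsp90, had a log2 change of 0.37 (interval -0.02 to 0.76, adjusted p = 0.139, limma). Both intervals reach well above 0, and both genes were called higher with array weights (adjusted p = 0.03 for Hsph1 and 0.0405 for Hsp90ab1, limma) and with quantile normalization (0.0257 for each). Without stem replicate 3 Hsph1 was called (0.0249), and without stem replicate 1 Hsp90ab1 was (0.0495). With each array centred on its median the changes shrank to 0.12 for Hsph1 (adjusted p = 0.671, limma) and 0.14 for Hsp90ab1 (0.594). The dimmer probe sets were not called, at 0.24 for Hsph1 (0.413) and -0.03 for Hsp90ab1 (0.96).

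**Figure D2:**
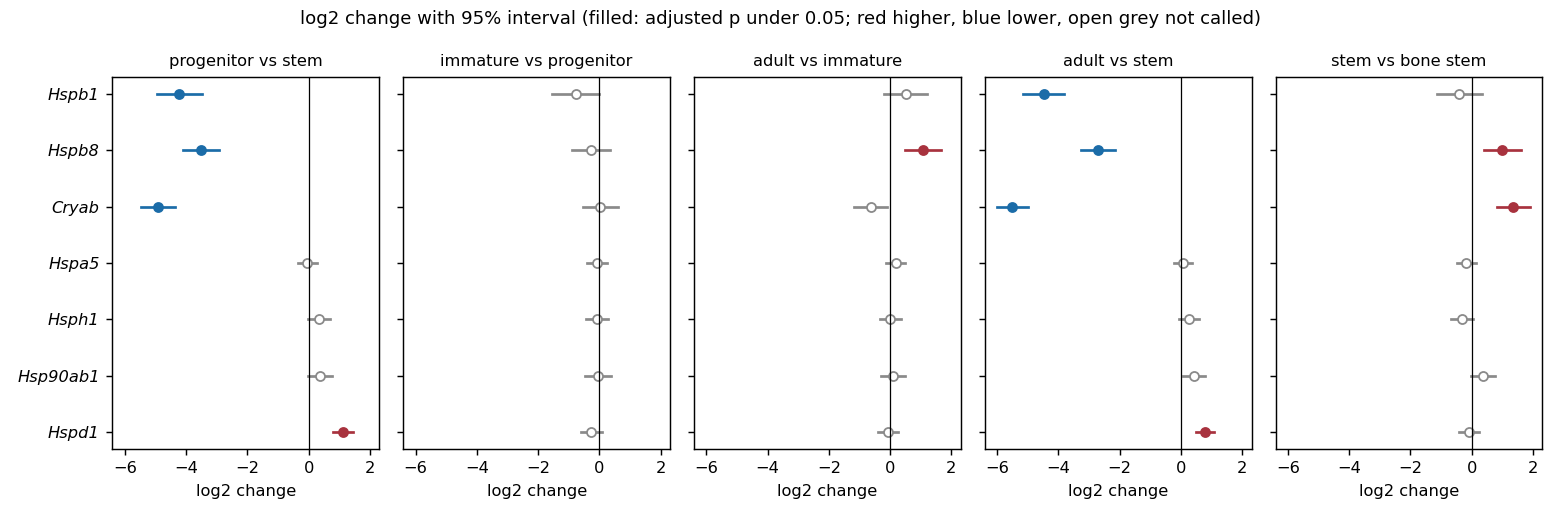
Log2 change of the 7 genes in the 5 comparisons, with 95% intervals from the limma fit. Filled points had an adjusted p under 0.05 (red higher, blue lower) and open grey points did not. The small heat shock protein genes lie at -3.52 or below in progenitor against stem and at -2.71 or below in adult against stem, while Hspa5, Hsph1 and Hsp90ab1 stay between -0.32 and 0.42 in all 5.

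Markers of smooth muscle and peritubular cells fell in the same comparison. Of 13 such markers, 12 were lower, 0 were higher and 1 was not called, and their summed signal was 12328.8 to 25783.4 in the stem arrays against 3769.3 to 4149.8 in the progenitor arrays. The largest falls were those of Actg2, Tagln and Cnn1, genes of the contractile apparatus, at -5.80, -5.67 and -4.79 on the log2 scale. The median over the 13 markers was -1.77, and the smallest fall was -0.51. In progenitor arrays Actg2 had a mean signal of 12.9 and Tagln of 30.8. Several lists of other cell types were mostly higher in progenitor arrays. The summed signal of leukocyte markers was 710.7 to 1180.9 in stem and 4463.2 to 6141.6 in progenitor arrays, with 10 of 14 higher and 1 lower. That of erythroid markers was 45.9 to 85.5 and 3485.5 to 5422.6, with 4 of 6 higher and 0 lower. Endothelial markers summed to 728.8 to 1001.8 and 1202.9 to 2269.5, with 7 of 11 higher and 2 lower, and of 8 Leydig markers 7 were higher and 0 lower. Stem and mesenchymal markers (5 of 10 higher, 4 lower), Sertoli markers (3 of 8 higher, 2 lower), bone lineage markers (3 of 7 higher, 2 lower) and germ cell markers (1 of 12 higher, 0 lower) were mixed or mostly not called. The part of these shifts in the changes of the members was not tested.

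From progenitor to immature cells, 0 of the 7 genes were called by limma, and 0 had an unadjusted p under 0.05. Over all genes, 1.94% were called, 1.33% higher and 0.612% lower, so little moved at this step in the whole series. Hspb1 signals in the immature arrays were 52.5, 37.1, 47.1 and 77.7. They overlapped the progenitor range from below, with a log2 change of -0.76 ± 0.37 (SE; adjusted p = 0.426, limma). Hspd1 signals were 2131.1, 3340.1, 3205.5 and 2869, a change of -0.26. The log2 changes of the other 5 genes lay between -0.27 and 0.04.

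From immature to adult cells, Hspb8 was the only one of the 7 genes that was called, and it rose. Over all genes, 29.3% were called, 12% higher and 17.3% lower, so 1 of 7 is below the background share for either direction and near that for higher calls. Hspb8 signals were 12.5, 10.4, 15.5 and 8.3 in the immature arrays and 33.1, 34.8, 36.4 and 70.2 in the adult arrays. The groups did not overlap, although adult replicate 4 stood well above the other 3 adult arrays. The log2 change was 1.07 ± 0.28 (SE; adjusted p = 0.00766, limma), and no fold is given at these low signals. With a pseudocount of 64 it was no longer called (0.50, adjusted p = 0.114, limma), and the dimmer probe set was not called either (0.57, adjusted p = 0.109). The summed signal of erythroid markers was 283.8 to 728.3 in adult against 2517.1 to 5399.5 in immature arrays, and 8 of 11 endothelial markers were higher and 0 lower, and their part in the Hspb8 rise was not tested.

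Cryab went to its lowest signals in the adult arrays, 18.9, 5.7, 1.3 and 10.1, against 30.1, 17.5, 12.4 and 28.7 in the immature arrays. These ranges overlapped and the log2 change of -0.63 ± 0.26 (SE) missed the threshold (adjusted p = 0.0906, limma). It was called without adult replicate 1 (-0.81, adjusted p = 0.038). Hspb1 had adult signals of 171.7, 31.6, 70.4 and 96, the widest relative spread of any group for this gene, with an SD of 63.9% of the mean. Its log2 change of 0.50 ± 0.34 (SE) was not called (adjusted p = 0.35, limma). It was 0.18 without adult replicate 1 (adjusted p = 0.783), and with array weights it was 0.87 and called (0.0487). Hspd1 changed by -0.07 (adjusted p = 0.827) and was called lower with quantile normalization (-0.36, adjusted p = 0.00182). The dimmer probe set of Hsp90ab1 was at 0.62 against 0.09 for the brighter, and neither was called (adjusted p = 0.122 and 0.789). Adult replicate 1 had the highest Hspb1 and Cryab of its group, and its mean over the 13 smooth muscle markers, 7.70 on the log2 scale, was also the highest of the later arrays.

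Set end to end, adult against stem Leydig cells gave the same calls as the first step. This comparison shares its stem arrays with progenitor against stem, so the calls are not independent. Of the 7 genes, 3 were lower and 1 was higher, where 53.7% of all genes were called, 26% lower and 27.7% higher. Cryab had the largest change of the 7, -5.50 ± 0.24 (SE; adjusted p = 1.67e-13, limma). Its adult signals lie where no floor was tested, and the size depends on the pseudocount: -7.15 with 1 and -3.98 with 64. Hspb1 changed by -4.48 ± 0.32 (SE; adjusted p = 3.16e-10) and Hspb8 by -2.71 ± 0.26 (SE; adjusted p = 2.8e-08). Hspd1 rose by 0.79 ± 0.15 (SE; adjusted p = 0.000124), from stem signals of 1339.1 to 1696.2 to adult signals of 2323.1 to 3123.7. Of the smooth muscle markers, 11 of 13 were lower and 0 higher in this comparison, and of the leukocyte markers 10 of 14 were higher and 1 lower, and their part was not tested.

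Hsp90ab1 came near the threshold in adult against stem cells. Its adult signals were 2602.2, 2212.8, 2884.9 and 2474.2, and its stem signals were 2542.3, 1836.2, 1574.8, 1570.7 and 2101.5. Stem replicate 1 was the only stem array inside the adult range. The log2 change was 0.42 ± 0.17 (SE; adjusted p = 0.0603, limma), and without that array it was called (0.52, adjusted p = 0.0175). With quantile normalization it was 0.07 (adjusted p = 0.644, limma), and the dimmer probe set was not called (0.51, adjusted p = 0.128). Hsph1 (0.26, adjusted p = 0.196) and Hspa5 (0.06, adjusted p = 0.769) were not called. Over the alternative settings the change of Hsph1 was 0.11 to 0.37, and its lowest adjusted p, 0.0303 (limma), was a call. For Hsp90ab1 the lowest was 0.0129. With quantile normalization Hspa5 changed sign and was called lower (-0.29, adjusted p = 0.0211, limma).

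In stem Leydig against bone stem cells, Cryab and Hspb8 were called and Hspb1 was not, and the 3 genes were not tested against each other. Of the 7 genes, 2 were higher in stem Leydig cells and 0 were lower. Over all genes 23.9% were called, 9.73% higher and 14.1% lower, so 2 of 7 called is near the background share for either direction. Cryab signals in the bone stem arrays were 374.1, 430.1 and 429.4, all below the lowest stem Leydig array, and the log2 difference was 1.36 ± 0.26 (SE; adjusted p = 0.000835, limma). Hspb8 signals were 146.5, 206.1 and 173.8 in bone stem arrays, and stem Leydig replicate 1 at 166.7 lay among them. The dimmer probe set of Hspb8 was called without overlap (1.33, adjusted p = 0.000637, limma). On the brighter probe set the difference of 0.999 ± 0.29 (SE) passed narrowly (adjusted p = 0.0173, limma) and was lost without bone stem replicate 1 (0.0774) or 3 (0.0612), with the close pairs averaged (0.0521) and in a fit of the compared groups alone (0.0568).

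Hspb1 did not follow them. Its bone stem signals were 1868.7, 3616.7 and 3448.5, across and above the stem Leydig range, and the log2 difference of -0.41 ± 0.35 (SE) was not called (adjusted p = 0.511, limma). Hspa5 signals of 2152.2, 2110.7 and 2160.8 all lay just above the highest stem Leydig array at 2105.7, a difference of only -0.18 that was not called (adjusted p = 0.506). Of the smooth muscle markers, 1 was higher in stem Leydig cells, 2 were lower and 10 were not called. The summed signal of leukocyte markers was 13928.9 to 15635.4 in the bone stem arrays against 710.7 to 1180.9 in the stem Leydig arrays, and its part in these differences was not tested.

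The probe sets of Hsp90ab1 gave different answers between the stem groups. The brighter one had bone stem signals of 1640.5, 1376.8 and 1397.9, and the log2 difference of 0.36 ± 0.19 (SE) was not called (adjusted p = 0.215, limma). The dimmer one had bone stem signals of 326.6, 520.8 and 500.5 against 899.5 to 1875.1 in stem Leydig arrays, without overlap, and its difference of 1.35 ± 0.28 (SE) was called (adjusted p = 0.00156, limma). The mean of both was called as well (0.86, adjusted p = 0.00408). For Hsph1 the probe sets had opposite signs, -0.32 for the brighter (adjusted p = 0.218) and 0.57 for the dimmer (adjusted p = 0.0598), and neither was called. The bone stem arrays are those with the higher 3′ to 5′ ratio given above, and its part in this disagreement was not tested.

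**Figure D3:**
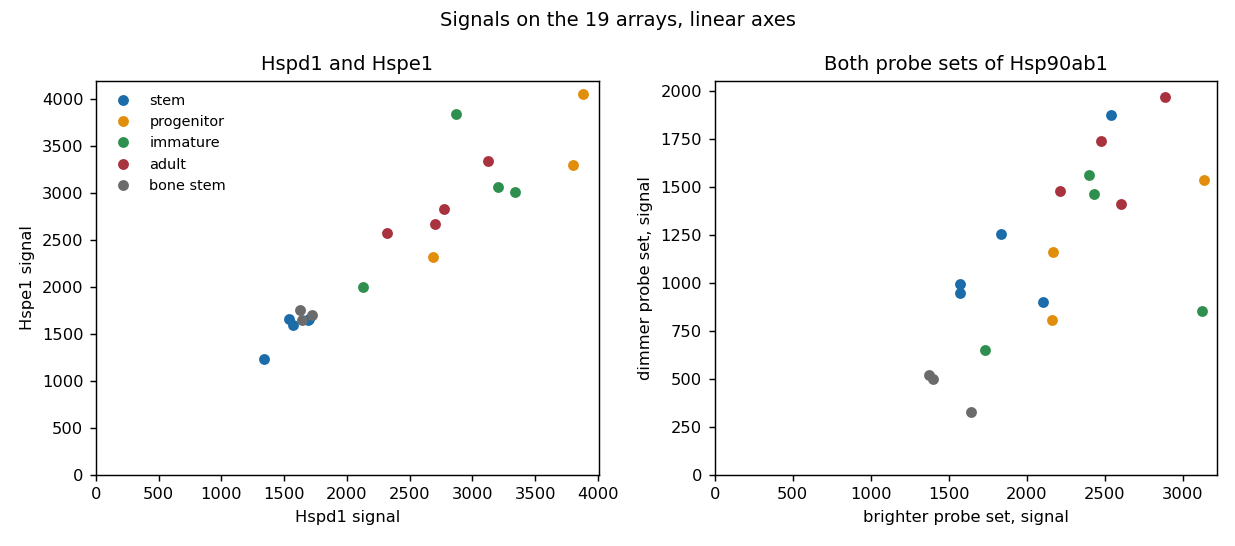
Signals on the 19 arrays on linear axes, coloured by group. On the left, Hspd1 and Hspe1, whose genes lie head to head, rise together across arrays, with stem and bone stem arrays at the low end. On the right, the brighter and the dimmer probe set of Hsp90ab1 spread widely, with the 3 bone stem arrays lowest on the dimmer one (326.6 to 520.8).

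The order of the 5 group means differed from gene to gene. It also differed among the 3 small heat shock protein genes, although both stem groups had the highest means for each. For Hspb1 it ran bone stem (2978 ± 964, SD, n = 3), stem Leydig (2242 ± 732, n = 5), progenitor (104 ± 40.4, n = 3), adult (92.5 ± 59.1, n = 4) and immature (53.6 ± 17.3, n = 4), and of these neighbours only stem Leydig and progenitor differed. For Hspb8 it ran stem Leydig (393 ± 157), bone stem (175 ± 29.8), adult (43.6 ± 17.7), progenitor (18.0 ± 9.61) and immature (11.7 ± 3.09), all SD with the same n. There stem Leydig differed from bone stem, and bone stem from adult (-1.71 for adult against bone stem, adjusted p = 7.93e-05, limma). The dimmer Hspb8 probe set did not show the latter (0.07, adjusted p = 0.867). For Cryab the order was stem Leydig (1135 ± 407), bone stem (411 ± 32.1), immature (22.2 ± 8.64), progenitor (21.6 ± 10.7) and adult (9.01 ± 7.52). The first 3 of these differed from each other as neighbours, and the last 3 did not.

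For Hspd1 the order was progenitor (3456 ± 667), immature (2887 ± 541), adult (2731 ± 328), bone stem (1664 ± 51.8) and stem Leydig (1567 ± 146). Only adult and bone stem differed as neighbours (0.70, adjusted p = 0.00161, limma). For Hsp90ab1 the order was adult (2544 ± 279), progenitor (2489 ± 560), immature (2421 ± 568), stem Leydig (1925 ± 409) and bone stem (1472 ± 147), and no neighbours differed. The ends of that order did: Hsp90ab1 was higher than in bone stem cells by 0.73 (progenitor), 0.69 (immature) and 0.78 (adult), all called. These 3 comparisons share the bone stem arrays.

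Hspa5, and Hsph1 on its brighter probe set, had no neighbours that differed. Hspa5 means ranged from 1759 ± 264 in immature to 2141 ± 26.8 in bone stem arrays, and Hsph1 means from 396 ± 107 in stem Leydig to 493 ± 12.5 in progenitor arrays. The dimmer Hsph1 probe set was different: it was called higher than in bone stem cells in progenitor (0.81, adjusted p = 0.00856, limma), immature (0.85, adjusted p = 0.0035) and adult cells (0.94, adjusted p = 0.00131), where the brighter lay between -0.06 and 0.02. In the other pairs of groups the small heat shock protein genes were all called lower in the later stages, in immature against stem cells (49.9% of all genes called) and in progenitor (45.3%), immature (50.1%) and adult (52.4%) against bone stem cells. For Hspb8 this held on the brighter probe set, while against bone stem cells the dimmer one was not called in progenitor (-0.62, adjusted p = 0.0896), immature (-0.50, adjusted p = 0.138) or adult cells. Adult against progenitor cells (33.6% of all genes called) gave no call among the 7 genes, with Hspb8 at 0.81 and an adjusted p of 0.0549 in limma.

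The small heat shock protein genes varied more than most genes between arrays of a group. The residual SD on the log2 scale was 0.56 for Hspb1, higher than in 98.7% of genes, 0.44 for Hspb8 (95.3%) and 0.41 for Cryab (93.5%). It was 0.20 for Hspa5 (33%), 0.21 for Hspd1 (38.7%) and 0.27 for Hsp90ab1 (67.5%), whose dimmer probe set reached 0.44 (95.3%). Within the 5 stem Leydig arrays the members did not line up: replicate 1 had the highest Hspb1 and the lowest Hspb8 and Cryab, and replicate 4 had the lowest Hspb1 and nearly the highest Hspb8.

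**Figure D4:**
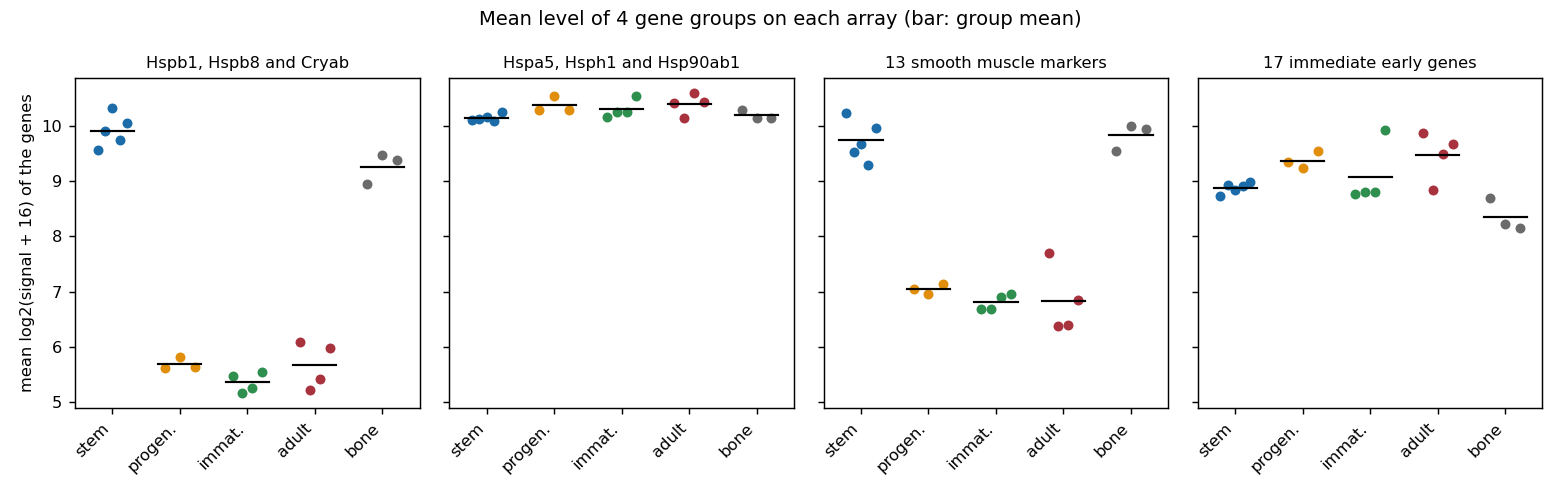
Mean of log2(signal + 16) over 4 sets of genes on each array, by group, with bars at the group means. The 3 small heat shock protein genes lie at 9.56 to 10.32 in stem and 5.17 to 6.10 in later Leydig arrays, the 13 smooth muscle markers also separate these arrays, and Hspa5, Hsph1 and Hsp90ab1 stay between 10.08 and 10.59. The 17 immediate early genes are high in immature replicate 4 (9.93).

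The small heat shock protein genes were high together in both stem groups and low together in the later stages. Inside each of these sets of arrays they did not all follow one another. Each set pools groups, so gaps between group means enter the correlations below. Over the 8 stem Leydig and bone stem arrays, Hspb8 and Cryab had a Pearson correlation of 0.82, but Hspb1 had -0.63 with Hspb8 and -0.33 with Cryab. Over the 11 later arrays the correlations were 0.20 for Hspb1 with Hspb8, 0.09 for Hspb1 with Cryab and -0.57 for Hspb8 with Cryab. Hspb1 went with the mean of the smooth muscle markers inside both sets, at 0.93 over 8 arrays and 0.79 over 11. Hspb8 did not, at -0.59 and -0.10, nor did Cryab, at -0.17 and 0.46. With the mean of the immediate early genes, Hspb1 had -0.70 over the 8 arrays and 0.80 over the 11. Adult replicate 1 was the highest of the later arrays for both Hspb1 (171.7) and the smooth muscle mean (7.70). Hspd1 and its partner Hspe1 stayed together inside both sets, at 0.88 and 0.80. These are descriptions over arrays that share groups, and most Hspb8 and Cryab signals on the later arrays are low, where no floor was tested.

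The genes most like each member were sought over all 19 arrays, which include the gap between these sets, among 7108 genes at or above the median signal. For Hspb1 they were Actg2 (Pearson r = 0.989), the lamin gene Lmna (0.987) and Gpr176 (0.985). For Cryab they were Selenom (0.991), Fstl3 (0.985) and the collagen gene Col5a3 (0.984). For Hspb8 they were Ppp1r14b (0.968), Dusp14 (0.965) and Gss, a glutathione synthesis enzyme (0.964).

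For Hspd1 the closest gene of all was Hspe1 (0.959), followed by Ehmt2 (0.95) and Nnt (0.935). For Hsp90ab1 they were Laptm4a (0.915), Matr3 (0.91) and Cnbp (0.892). Hspa5 and Hsph1 had neighbours with lower correlations, Lrrc58 (0.814), Eif4g2 (0.805) and Pgam1 (0.784) for Hspa5, and mrpl11 (0.83), the proteasome gene Psmd1 (0.826) and Ap1g1 (0.809) for Hsph1.

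Hspe1 and Hspb2, genomic neighbours of members, moved with them from stem to progenitor cells. Hspe1 signals were 1654.3, 1591.5, 1656.5, 1232.6 and 1642.8 in stem and 2318.3, 4046.9 and 3296.8 in progenitor arrays, and it rose by 1.01 ± 0.19 (SE; adjusted p = 0.000221, limma). It was also higher in adult than in stem cells, by 0.87. Hspb2, a small heat shock protein gene of muscle, overlaps Cryab by 1331 bases in the RefSeq gene models on chromosome 8. Hspb2 signals were 45.9, 31.6, 81.2, 31.6 and 37.2 in stem and 3.8, 11.2 and 7.3 in progenitor arrays. It fell by 1.35 on the log2 scale (SE 0.19, adjusted p = 7.96e-06, limma). Its progenitor signals, and its mean of 11.6 in bone stem arrays, lie where no floor was tested. Whether the probe sets keep the signals of these overlapping genes apart was not tested.

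The other small heat shock protein genes did not all follow Hspb1, Hspb8 and Cryab. In this and the further lists, the gene said to lead in a direction is the called one with the smallest adjusted p, which need not have the largest change. List counts are to be read beside the shares of all genes called. These were 45.3% in progenitor against stem, 1.94% in immature against progenitor and 29.3% in adult against immature cells. They were 53.7% in adult against stem and 23.9% in stem Leydig against bone stem cells. Of 6 further small heat shock protein genes measured, Hspb2 was lower and the lens crystallin gene Cryaa was higher in progenitor against stem cells. The other 4 were not called. Cryaa lay at mean signals of 18.0 and 3.22, where no floor was tested. Hspb6, which encodes Hsp20, had a change of -0.31 (adjusted p = 0.166) from stem to progenitor and was lower in stem Leydig than in bone stem cells by 0.98 ± 0.17 (SE; adjusted p = 0.000223, limma), opposite to Cryab.

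Hspb9, a small heat shock protein gene known from the testis, rose in adult cells. Its signals were 558.9, 203.3, 122.1 and 181.2 in adult, 85.3, 105.4, 98.1 and 70.1 in immature and 14.1 to 24.1 in stem arrays. The change was 1.21 ± 0.33 (SE; adjusted p = 0.0121, limma) from immature to adult, and 2.87 from stem to adult. The summed signal of 12 germ cell markers was 1834.3 to 4666.3 in the adult arrays against 689 to 1425.2 in the immature arrays, and its part in the Hspb9 rise was not tested.

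Among 13 further Hsp70, Hsp110 and Hsp90 genes, 2 were higher and 1 was lower in progenitor against stem cells (45.3% of all genes called). Trap1, the mitochondrial Hsp90, rose by 0.52 (adjusted p = 0.000753, limma) and by 0.79 in adult against stem cells. Hspa12a, a distant Hsp70 relative, fell in progenitor (-0.92) and adult cells (-1.505), both against stem. Hspa9, the mitochondrial Hsp70, rose by 0.45 from immature to adult cells (adjusted p = 0.0414), and Hspa14 fell by 0.49. In stem Leydig against bone stem cells 7 of the 13 were higher and 1 was lower, with Hspa12a at 1.999 and Trap1 at -0.48. The median over this list was 0.52 in that comparison, against 0.00 over all genes.

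Hspa1a, an inducible Hsp70 whose near-identical copy is Hspa1b, was read by a probe set with 1 symbol, and the signals of both copies may not be separate. Its signals were 751.6, 639.6, 553.5, 739.3 and 720.6 in stem, 543.9, 410.7 and 423.9 in progenitor, 358.8, 275.4, 265 and 609.4 in immature and 699.3, 345.1, 524 and 689.1 in adult arrays. Immature replicate 4 was far above the other immature arrays. No step was called, with -0.55 from stem to progenitor (adjusted p = 0.0859, limma) and 0.59 from immature to adult (adjusted p = 0.0878).

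Immature replicate 4 was also the highest immature array for Hspb1, Hspa5 and the brighter Hsp90ab1 probe set of the members. On the dimmer Hsp90ab1 probe set this array had 852, below replicates 2 and 3 (1563.2 and 1463.2). Its mean over the immediate early genes was 9.93 on the log2 scale, against 8.77 to 8.81 on the other immature arrays. Immediate early genes are switched on within minutes by growth signals or by handling of cells. Of 17 such genes, 8 were higher and 2 were lower in progenitor against stem cells (45.3% of all genes called). Among them were the transcription factor gene Jun at 1.91 and Ier3 at -1.83. From immature to adult cells 3 were higher and 1 was lower, with Ier3 at 1.87 and Nr4a1 at -1.16. In adult against stem cells 7 were higher and 1 was lower, led by Zfp36 at 2.71 and Klf6 at -1.49, and in stem Leydig against bone stem cells 5 were higher, led by Klf4 at 1.56. Whether handling of the cells moved any member was not tested.

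**Figure D5:**
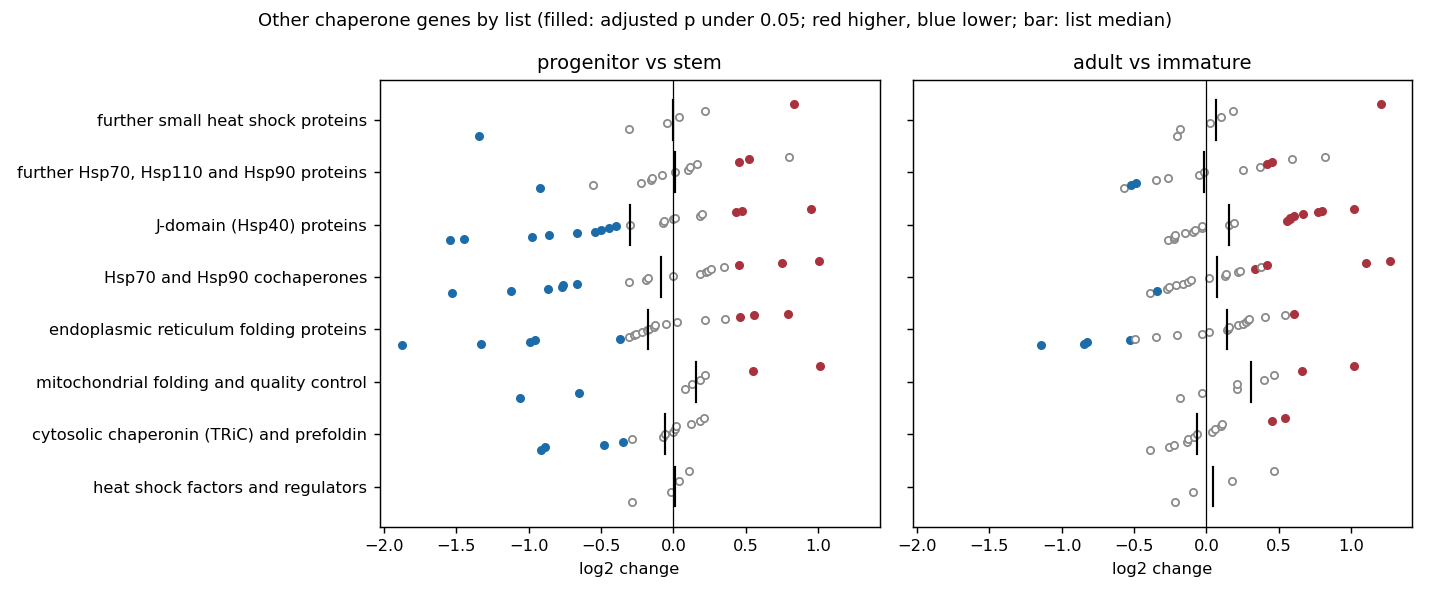
Log2 change of each gene of 8 further chaperone lists in progenitor against stem (left) and adult against immature (right). Filled points had an adjusted p under 0.05 (red higher, blue lower), open points did not, and bars are list medians. J-domain genes have 9 lower and 3 higher points on the left, and 8 higher and 0 lower points on the right.

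J-domain proteins (Hsp40) deliver clients to Hsp70. Of 19 measured genes, 9 were lower and 3 were higher in progenitor against stem cells (45.3% of all genes called), with a median of -0.30. Dnajb4 had the smallest adjusted p among the lower ones (-1.54, adjusted p = 9.99e-09, limma), with mean signals of 563 ± 86.7 (SD, n = 5) in stem and 183 ± 36.1 (SD, n = 3) in progenitor arrays. The mitochondrial Dnaja3 led the higher ones (0.95). From immature to adult cells (29.3% of all genes called) 8 were higher and 0 were lower. They were led by Dnajc3, an endoplasmic reticulum cochaperone, at 1.02 (adjusted p = 8.31e-06, limma).

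In adult against stem cells, 6 J-domain genes were higher and 7 were lower, led by Dnajc7 at 1.005 and Dnajb5 at -1.55. Between stem Leydig and bone stem cells 2 were higher and 2 were lower, led by Dnajb9 at 0.89 and Dnajb11 at -0.71. Dnajb1, the main heat-inducible Hsp40 of the cytosol, was not called in any of the 5 comparisons.

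Cochaperones of Hsp70 and Hsp90 held the clearest single genes outside the members. Bag2, an Hsp70 exchange factor, had stem signals of 451.7, 417.8, 492.6, 494.6 and 501.4. Its progenitor signals were 147.6, 166.4 and 143.8 and its adult signals 95.4, 103, 91.6 and 119. It fell by 1.53 (SE 0.11, adjusted p = 5.4e-10, limma) from stem to progenitor and by 2.05 from stem to adult. The stem arrays lay far above all progenitor and adult arrays.

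Fkbp5, an Hsp90 cochaperone of steroid receptors that glucocorticoids and androgens induce, rose late. Its signals were 86.7, 89.4 and 112 in progenitor, 288.9, 308.5, 313.9 and 185 in immature and 600.1, 611.6, 571.2 and 595.2 in adult arrays. These 3 groups did not overlap. It rose by 1.35 ± 0.17 (SE; adjusted p = 0.000294, limma) from progenitor to immature, the only chaperone-list gene called higher at that step, and by 1.10 from immature to adult.

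Bag3, the partner of Hspb8, had stem signals of 510.7, 530.5, 597.5, 555.4 and 619.4, progenitor signals of 207.1, 215.7 and 344.4, and adult signals of 919.3, 978, 1095.4 and 1009.9. It was chosen for mention after its values were seen. It fell by 1.12 from stem to progenitor (adjusted p = 9.24e-05, limma) and rose by 1.27 from immature to adult (adjusted p = 4.67e-05), and in the adult arrays it lay above all stem arrays, where Hspb8 lay below them. Of the 18 cochaperone genes, 6 were lower and 3 were higher in progenitor against stem cells (45.3% of all genes called). Ppid led the higher ones at 1.002. From immature to adult cells 4 were higher, and 1, Bag2, was lower at -0.34. In adult against stem cells 6 were higher, led by Fkbp5 at 2.26, and 6 were lower. Between stem Leydig and bone stem cells 3 were higher, led by Fkbp5 at 0.96, and 1, Ppid, was lower at -0.70.

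Of 20 folding genes of the endoplasmic reticulum, the compartment of Hspa5, 5 were lower, 3 were higher and 12 were not called in progenitor against stem cells, beside 45.3% of all genes called. The oxidase gene Ero1a fell by 1.87 (adjusted p = 7.7e-08, limma), and its relative Ero1b rose by 0.79. In adult against stem cells 11 were lower and 4 were higher, with a median of -0.45. Sdf2l1 fell by 2.21 (adjusted p = 2.15e-10), while Herpud1, of the degradation of misfolded proteins, rose by 1.28.

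Serpinh1, the collagen chaperone Hsp47, had the smallest adjusted p among the 4 genes of this list that fell from immature to adult cells (-1.15, adjusted p = 0.000131, limma), and 1, Herpud1, rose by 0.60. Its adult signals were 716.9, 544.5, 592.2 and 659.6, below all immature arrays (1156.6 to 2026.2). The stress-response factor gene Ddit3 was the only one called from progenitor to immature cells, lower by -0.70 (adjusted p = 0.0446). Between stem Leydig and bone stem cells 1 was higher (Pdia4, 0.89) and 2 were lower (led by Sdf2l1, -1.11).

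Mitochondrial folding genes beside Hspd1 were mixed at the first step and mostly higher at the end. Of 8 measured, 2 were higher and 2 were lower in progenitor against stem cells (45.3% of all genes called). They were led by Hspe1 and by the import receptor gene Tomm70 (-1.06). In adult against stem cells 5 were higher and 2 were lower, led by Grpel1, an exchange factor of mitochondrial Hsp70 (0.75, adjusted p = 3.09e-06, limma), and by Grpel2 (-0.91). Grpel1 rose by 0.66 from immature to adult cells, where 2 of the list were higher and 0 lower. None of the 8 was called between stem Leydig and bone stem cells.

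The cytosolic chaperonin and prefoldin, which fold actin and tubulin, had 4 of 13 genes lower and 0 higher in progenitor against stem cells. Over all genes 45.3% were called there, 18.5% lower and 26.8% higher. The 4 of 13 called is below the background share for either direction and above that for lower calls, a difference that was not tested. Pfdn4 led the lower ones in that comparison (-0.92) and in adult against stem cells (-1.30). In the latter 5 were lower and 0 higher, beside 53.7% of all genes called, 26% lower. From immature to adult cells (29.3% of all genes called) 2 were higher, led by Pfdn2 at 0.55. Of 4 heat shock factor and regulator genes, 0 were called in progenitor against stem cells, and in adult against stem cells Hsf2 (-0.67) and Hsf1 (-0.51) were lower and Hsf4 was higher (0.49). Hsf1 encodes the main activator of heat-inducible chaperones. Between stem Leydig and bone stem cells Hsf4 alone was called, at -0.74.

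Another scaling of the arrays moved the background and not the calls of the small heat shock protein genes. With each array centred on its median, the share of called genes that were higher went from 59.2% to 38.2% in progenitor against stem, from 41% to 64.3% in adult against immature and from 40.8% to 30.4% in stem Leydig against bone stem cells. The median change of all genes moved from 0.08 to -0.14 in the first of these and from -0.06 to 0.12 in the second. Hspd1 was still higher in progenitors under that centring (0.89).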

How the data were processed

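The members and the gene lists were chosen with earlier results of these data known. The authors deposited linear intensities, 1 for each probe set on each array, which the submitters' processing notes credit to MAS5 and GCOS without versions. Every array of the table has a 2% trimmed mean of 100, so it came scaled. Detection calls were not used, and low signals therefore have no tested floor. Median signals were 18.9 to 36.6, and the number of arrays limits the precision.

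The 57 control probe sets were left out, which leaves 31042. Of these, 20826 have 1 symbol, 436 several and 9780 none, and 20758 of the 20826 gene IDs were found in the RefSeq table. A gene was represented by its brightest probe set. Signals became log2(signal + 16), and limma 3.58.1 (R 4.3.3) fitted 5 group means over all 19 arrays, with moderated statistics, an intensity trend, two-sided tests and Benjamini-Hochberg adjustment. The fit was tested on simulated data. Python 3.11.15 with pandas 2.3.3 read sequences, and matplotlib 3.10.9 drew the plots.

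Named were all members, from each of the 9 further lists (118 of 125 symbols measured) the called gene with the smallest adjusted p in each direction and comparison, and for each member the 3 most correlated genes. Of 9 marker lists (89 of 102 symbols measured), counts are given once for all 9 and again beside the results that some moved with. Hspa1a, Dnajb1, Bag3, Hsf1 and the single smooth muscle genes were chosen after their values were seen, as were Hspb6 and Hspe1 outside the comparisons where the rule names them. Alternatives were quantile normalization, median centring, pseudocounts of 1 and 64, leaving out the lowest 40% of probe sets, a fit of the compared groups alone, array weights, a replicate block, the mean of all probe sets, each array left out in turn, and 2 chosen after seeing the data (2 arrays left out, and 2 close pairs averaged).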

Additional observations from a re-analysis of the deposited data

Results flagged for a closer look

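Hspb8 in adult replicate 4 had a signal of 70.2, far from the 33.1 to 36.4 of the other 3 adult arrays, and its gap to the nearest of them was 0.911 of the range of the group. Of 30 groups of 4 or 5 arrays checked in this way over the 10 probe sets, 1 stood out. Chance picks about 1 in 20 such groups. The dimmer probe set of Hspb8 gave 22.3 on the same array, inside the range of its group (13.2 to 34.2). The cause was not tested.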

How the results depend on the processing

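Of 665 recomputed log2 changes of the 7 genes over 5 comparisons, 637 kept their side of the threshold, 6 lost a call, 21 gained one and 1 reversed. Of the 637, 28 did not keep their direction: they crossed 0 and stayed uncalled. The reversal was Hspa5 in adult against stem cells, 0.06 as reported and -0.29 with quantile normalization. The count of 1 called gene in adult against immature cells became 2 with array weights (Hspb1 added, higher), a pseudocount of 1 (Cryab added, lower) or quantile normalization (Hspd1 added, lower at -0.36), 0 with a pseudocount of 64, and 1 to 2 when single arrays were left out (2 without adult replicate 1, Cryab added, lower). The count of 2 in stem Leydig against bone stem cells became 4 with array weights (Hsp90ab1 added, higher, and Hsph1, lower) and 1 with a pseudocount of 1, with the groups compared alone or with the close pairs averaged, and it was 1 to 2 when single arrays were left out (1 without bone stem replicate 1 or 3). A pseudocount of 1 left Cryab just outside the threshold there (1.39, adjusted p = 0.0504, limma). The mean of all probe sets added Hsp90ab1 in that comparison (0.86, higher). Over all settings 4 calls were gained and 5 lost in stem Leydig against bone stem cells. In adult against stem cells 7 were gained and 0 lost, beside the 1 reversal. The causes were not tested. Without immature replicate 4 and progenitor replicate 3 the counts were 4, 0, 1, 5 and 2 in the order of the comparisons, with Hsp90ab1 added in adult against stem cells (adjusted p = 0.0423, limma). With the close pairs averaged they were 4, 0, 1, 4 and 1.

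A replicate block in the fit gave counts of 4, 0, 1, 4 and 2, in the order of the comparisons, as without it. Nothing in the labels says that equal numbers pair samples: deviations of same-numbered arrays correlated between -0.26 and 0.338, and 6 of 17 pairs lay above 0.1. Signals under the pseudocount, such as those of Cryab in adult cells, hold little information on fold size.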
